A study of Mus musculus with 24 samples.

Results

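The 10 genes described here form the core of the G1 checkpoint in mouse blood stem and progenitor cells. They are the catalytic kinases Cdk4 and Cdk6, the D-type cyclins Ccnd1, Ccnd2 and Ccnd3 that activate them, their substrate Rb1, and 4 inhibitors, namely Cdkn1a, Cdkn1b and Cdkn1c of the Cip/Kip family and Cdkn2c of the INK4 family. The members were listed by gene name, with earlier results of these data known. Each matched a row among the 56748 genes of the count table. All 10 passed the filter on low counts, which left 21964 genes. The libraries hold total RNA of cells sorted from mouse bone marrow, although the tissue label reads blood. The treatment field reads tamoxifen for both genotypes. The 8 groups, with 3 libraries each, are KO-labelled HSC and WT HSC (hematopoietic stem cells), KO-labelled MPP1 and WT MPP1 (multipotent progenitors), KO-labelled MPP2 and WT MPP2, and KO-labelled MPP4 and WT MPP4. The labels name neither the deleted gene, the Cre driver, the sort gates nor the age and sex of the mice, and they do not say whether libraries came from separate animals, so a p-value here reflects the variation among these libraries, which may be technical.

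In G1, D-type cyclins bind CDK4 or CDK6, and the active complexes phosphorylate RB1, which then releases E2F transcription factors that switch on the genes of S phase. INK4 proteins block CDK4 and CDK6 directly, whereas the Cip/Kip proteins p21 (Cdkn1a), p27 (Cdkn1b) and p57 (Cdkn1c) bind cyclin-CDK complexes. Long-term HSCs are mostly quiescent. In this tissue CDK6 is known for its low level in dormant HSCs and for its rise as they prepare to divide, and p57 is known for its part in HSC quiescence.

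Each library held between 2540511 and 3807003 counts, and replicates of a group differed by 4.32 to 10.3 times counting noise, so none was a copy of another. Counts over 2003 olfactory and vomeronasal receptor genes, which blood cells are not expected to use, gave a background that ran with gene length. It was estimated at 5.5% ± 0.315 of all counts in KO-labelled HSC against 21.9% ± 1.5 in WT HSC, 13.6% ± 0.265 in KO-labelled MPP1 against 23.6% ± 0.814 in WT MPP1, 9.31% ± 0.619 in KO-labelled MPP2 against 11.4% ± 0.115 in WT MPP2, and 18% ± 0.404 in KO-labelled MPP4 against 29.8% ± 0.0577 in WT MPP4 (SD, n = 3). The background moved with genotype, and the main results below are therefore also given after it was subtracted per kb of gene span. Values with no mention of subtraction are those of the counts as deposited. Subtraction shifted every log2 fold change of KO-labelled over WT through the scaled totals alone, by -0.55 (HSC), -0.35 (MPP1), -0.13 (MPP2) and -0.41 (MPP4). For Cdk4, Cdk6, Ccnd2 and Ccnd3 background was estimated at 0.28% to 6.39% of the gene's own counts in a library. The sort markers went against 3 of the population labels: Flt3, usually high in MPP4, averaged 544 CPM (counts scaled to a common library total) in KO-labelled MPP2 and 1138 CPM in WT MPP2, against 84.6 CPM in KO-labelled MPP4 and 64.9 CPM in WT MPP4, and Slamf1, usually present in MPP2, averaged 4.78, 7.86, 87.5 and 41.1 CPM in the same order. These cells are therefore called MPP2-labelled and MPP4-labelled. MPP1, usually sorted as Flt3-negative, had 578 CPM of Flt3 in KO-labelled and 424 CPM in WT cells, beside 31.1 CPM in KO-labelled HSC and 63.3 CPM in WT HSC. Slamf1, usually present in both, was at 4.69 CPM in KO-labelled and 9.70 CPM in WT MPP1, beside 252 CPM in KO-labelled HSC and 72.7 CPM in WT HSC. The name MPP1 is thus also used only as the label gives it. Ddx6, the P-body helicase that general knowledge of the study gives as the deleted gene, averaged 76.1 CPM in KO-labelled HSC and 62.1 CPM in WT HSC, and over the 4 populations was higher by 0.32 ± 0.09 on the log2 scale in KO-labelled cells (adjusted p = 0.00338). All genes that averaged at least 64 CPM, as Ddx6 did, had a median of 0.32 in the same average, and 66.9% of them rose. On this average the Ddx6 value is therefore not particular to that gene. In MPP1 Ddx6 rose by 0.61 ± 0.19 (adjusted p = 0.0202 in edgeR's quasi-likelihood test), where genes of that level had a median of 0.28. In HSC, MPP2-labelled and MPP4-labelled cells it was not called (adjusted p = 0.199, 0.797 and 0.309). A total over a gene cannot show a deleted exon, so the genotype labels are taken as given.

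Cdk6, the kinase of the pair that dominates in blood cells, was at 1807, 1868 and 1683 CPM in the KO-labelled HSC libraries, against 650.0, 625 and 707.5 CPM in the WT HSC libraries. Every KO-labelled HSC library was above every WT one by a wide margin. The log2 fold change of 1.44 ± 0.06 (SE) corresponds to a 2.7-fold rise, with an adjusted p of 7.53e-24 from edgeR's quasi-likelihood test over all 21964 genes. After background subtraction the rise was 0.94 ± 0.06 (adjusted p = 8.97e-12), and it was called under all 15 alternatives run. Among the 3821 genes that averaged at least 64 CPM, this difference stood at percentile 98.4 as deposited, and at percentile 97 of 3789 such genes after subtraction. In bulk RNA, more cells with the transcript and more transcript per cell cannot be told apart.

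In the other populations the genotype difference of Cdk6 was small. MPP1 libraries had 1032, 1096 and 1038 CPM when KO-labelled and 860, 846 and 861 CPM when WT. MPP2-labelled libraries had 2606, 2670 and 2658 CPM when KO-labelled and 2089, 2194 and 2143 CPM when WT. MPP4-labelled libraries had 2614, 2588 and 2907 CPM when KO-labelled and 2073, 1954 and 2105 CPM when WT. The genotypes did not overlap in any of these populations. The corresponding log2 values of KO-labelled over WT, 0.30 ± 0.06 in MPP1 (adjusted p = 2.79e-04), 0.30 ± 0.06 in MPP2-labelled cells (adjusted p = 4.07e-04) and 0.40 ± 0.06 in MPP4-labelled cells (adjusted p = 1.82e-06), were called as deposited. After background subtraction they were -0.02 ± 0.06, 0.18 ± 0.06 and 0.01 ± 0.06, and edgeR called none (adjusted p = 0.923, 0.0798 and 0.971). Background was estimated at only 0.544% to 3.9% of the Cdk6 counts of these libraries. The scaled totals alone shifted the values by -0.35, -0.13 and -0.41. In MPP1 the call was also lost with total counts and no scaling factors (0.14, adjusted p = 0.123), a scaling added after the data were seen. The difference between populations was itself tested. The interaction of genotype and population had an adjusted p of 1.16e-15 as deposited and 6.7e-09 after subtraction.

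Cdk4, the other kinase, was at 82.2, 61.5 and 58.8 CPM in KO-labelled HSC and 32.7, 43.0 and 24.3 CPM in WT HSC. The groups did not overlap, and Cdk4 rose by 1.02 ± 0.24 on the log2 scale (adjusted p = 7.25e-04), though the value after background subtraction was 0.49 ± 0.25 and was not called (adjusted p = 0.209). In MPP4-labelled cells Cdk4 was at 55.2, 44.6 and 84.8 CPM when KO-labelled, against 39.2, 32.3 and 34.2 CPM when WT. The difference of 0.80 ± 0.24 (adjusted p = 0.0147) did not pass with background subtracted (0.42 ± 0.25, adjusted p = 0.358), without KO-labelled replicate 3 (0.51, adjusted p = 0.188) or without WT replicate 2 (0.74, adjusted p = 0.0608). Another 4 alternatives lost it as well, with adjusted p between 0.0529 and 0.0781. Differences of 0.22 ± 0.24 in MPP1 and 0.21 ± 0.24 in MPP2-labelled cells were not called (adjusted p = 0.632 and 0.684). Per kb of exon, Cdk6 outnumbered Cdk4 in every group, by 6.27 ± 1.03 times in KO-labelled HSC and 4.92 ± 1.71 times in WT HSC, with the other group means between 5.22 and 13.6. Per kb of gene span the same ratio was only 0.625 in KO-labelled HSC and 0.49 in WT HSC, because Cdk6 spans 190 kb with 14 kb of exon and Cdk4 spans 4.39 kb with 3.25 kb of exon. The order of the kinases' levels therefore depends on which length is used. The ratios of KO-labelled and WT libraries overlapped in all 4 populations on either length.

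**Figure D1:**
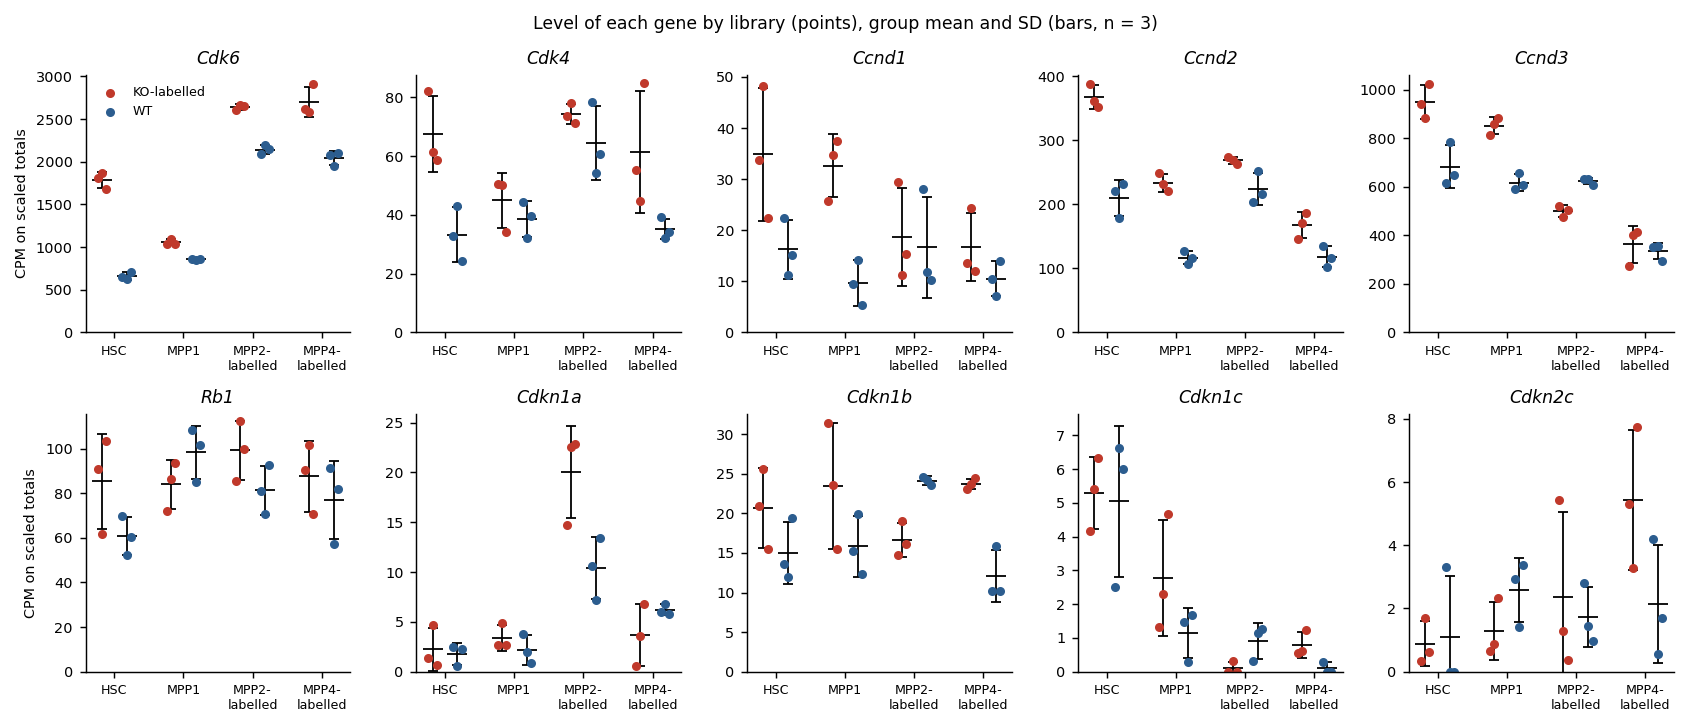
Level of each of the 10 genes in CPM, counts scaled to a common library total (y axis, starting at 0) in the 4 populations (x axis), with KO-labelled libraries in red left of WT libraries in blue, and black bars for the mean and SD of 3 libraries. Cdk6 averaged 1786 CPM in KO-labelled HSC against 661 CPM in WT HSC, while Cdkn1c and Cdkn2c stayed below 8 CPM in every library.

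Cdk4 and Cdk6 are 2 of the 6 members with a promoter sequence in the RefSeq table (GRCm38.p6, 250 bases before to 50 after the start). Their promoters are shown because these are the kinases that rose together in KO-labelled HSC as deposited. Capitals mark the E-box CACGTG, a palindrome that reads the same on both strands. The Cdk4 promoter lies at chr10:127063285-127063584 on the plus strand and the Cdk6 promoter at chr5:3343643-3343942 on the plus strand.
Cdk4: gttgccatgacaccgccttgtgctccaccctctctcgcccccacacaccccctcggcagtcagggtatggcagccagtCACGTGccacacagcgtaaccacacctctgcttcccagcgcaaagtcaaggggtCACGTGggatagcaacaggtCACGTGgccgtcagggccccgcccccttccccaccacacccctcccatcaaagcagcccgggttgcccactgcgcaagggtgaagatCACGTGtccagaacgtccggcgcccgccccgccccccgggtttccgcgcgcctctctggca
Cdk6: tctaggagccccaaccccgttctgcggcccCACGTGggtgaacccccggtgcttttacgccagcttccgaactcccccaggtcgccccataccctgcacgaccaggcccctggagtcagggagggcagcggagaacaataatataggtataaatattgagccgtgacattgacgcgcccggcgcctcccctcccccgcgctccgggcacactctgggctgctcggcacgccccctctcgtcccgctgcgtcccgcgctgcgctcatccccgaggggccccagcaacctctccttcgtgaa
The Cdk4 window holds 4 E-boxes and the Cdk6 window 1, and among the 9 windows of the 6 members 1 of Cdkn2c holds another. Of all 32851 mouse promoter windows of this length in the table, 7.15% hold at least 1 E-box and 0.0883%, or 29 windows, hold 3 or more. The letters TTTNNCGC, a loose form of the E2F pattern with any base at N, were searched on both strands. They occur in 5.17% of the windows, once in the Cdk6 window apart from its E-box and not in the Cdk4 window. In the Cdk6 match the N bases are T and A, so it is not taken as an E2F site. A match of letters describes the sequence and says nothing of binding in these cells.

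All 3 D-type cyclins rose in KO-labelled HSC and MPP1 as deposited, whereas in MPP2-labelled cells Ccnd3 fell and in MPP4-labelled cells Ccnd2 rose. Ccnd2, the D-type cyclin linked to cytokine-driven entry into the cycle in several blood lineages, was at 389, 362 and 352 CPM in KO-labelled HSC, against 221, 179 and 232 CPM in WT HSC. In MPP1 it was at 249, 231 and 220.4 CPM when KO-labelled and 127, 107 and 117 CPM when WT. Neither population showed an overlap between the genotypes. The difference in HSC was 0.80 ± 0.12 (adjusted p = 4.13e-07) as deposited and 0.27 ± 0.12 after background subtraction, where it was not called (adjusted p = 0.156). The rise in MPP1 was 1.00 ± 0.12 (adjusted p = 2.06e-08) as deposited and 0.69 ± 0.12 after subtraction (adjusted p = 5.16e-04), and it was called under all 15 alternatives. Against the genes of at least 64 CPM this MPP1 difference stood at percentile 94.7 as deposited and 92.9 after subtraction.

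In MPP2-labelled cells Ccnd2 was at 274, 270 and 263 CPM when KO-labelled, against 203, 251 and 216 CPM when WT. The groups did not overlap, but the difference of 0.27 ± 0.12 was not called (adjusted p = 0.181). In MPP4-labelled cells it was at 147, 170 and 187 CPM when KO-labelled and 135, 103 and 116 CPM when WT. The difference of 0.51 ± 0.12 (adjusted p = 0.00197) was not called after subtraction (0.14 ± 0.12, adjusted p = 0.607) or in a fit of the MPP4-labelled libraries alone (0.46, adjusted p = 0.0558). Averaged over the 4 populations Ccnd2 rose by 0.65 ± 0.06 as deposited (adjusted p = 1.84e-12) and by 0.31 ± 0.06 after subtraction (adjusted p = 5.2e-04). The interaction of genotype and population was called as deposited (adjusted p = 0.00542) and not after subtraction (adjusted p = 0.126).

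Ccnd3, by counts the most abundant D-type cyclin here, was at 943, 885 and 1025 CPM in KO-labelled HSC and 617, 783 and 648 CPM in WT HSC. In MPP1 it was at 814, 860 and 884 CPM when KO-labelled and 589, 655 and 605 CPM when WT. In both populations every KO-labelled library was above every WT one, and Ccnd3 rose by 0.48 ± 0.10 (adjusted p = 1.5e-04) and 0.47 ± 0.10 (adjusted p = 6.4e-04). After background subtraction the values were -0.05 ± 0.11 in HSC and 0.14 ± 0.11 in MPP1, neither of them called (adjusted p = 0.85 and 0.629), and with no scaling factors the HSC value was 0.14 (adjusted p = 0.271). The rise in HSC stood at percentile 44 of the genes of at least 64 CPM, of which 65.3% rose in that comparison as deposited and 16.8% after subtraction.

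The direction turned in MPP2-labelled cells. There Ccnd3 was at 522.5, 475 and 505 CPM when KO-labelled, against 631, 634 and 609 CPM when WT, with every KO-labelled library below every WT one. It fell by 0.32 ± 0.10 on the log2 scale (adjusted p = 0.0398), and by 0.45 ± 0.11 after subtraction (adjusted p = 0.017). Leaving out any 1 of the 6 libraries kept the direction but lost the call: the values were -0.35 and -0.28 without KO-labelled replicates 1 and 2 and -0.33 without replicate 3, and -0.31, -0.31 and -0.34 without WT replicates 1, 2 and 3 (adjusted p from 0.0529 to 0.147). In MPP4-labelled cells Ccnd3 was at 275, 400 and 414.5 CPM when KO-labelled and 351, 356 and 296 CPM when WT. The groups overlapped and the difference of 0.12 ± 0.10 was not called (adjusted p = 0.46), whereas without KO-labelled replicate 1 it was 0.28 and was called (adjusted p = 0.0431). The interaction for Ccnd3 was called as deposited (adjusted p = 4.01e-05) and not after subtraction (adjusted p = 0.0912). Its average over the populations was 0.19 ± 0.05 as deposited (adjusted p = 0.00204) and -0.16 ± 0.06 after subtraction (adjusted p = 0.0482). The scaled totals alone moved this average by -0.36. The call as deposited was also lost with median-of-ratios factors (0.07, adjusted p = 0.214), with no scaling factors (0.008, adjusted p = 0.907), in DESeq2 (0.07, adjusted p = 0.234) and with the background subtracted per kb of exonic length (0.09, adjusted p = 0.136).

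Ccnd1 is the cyclin best known from epithelial and mesenchymal cells. In KO-labelled MPP1 it was at 25.7, 34.7 and 37.4 CPM, against 9.41, 14.3 and 5.32 CPM in WT MPP1. The groups did not overlap, and Ccnd1 rose by 1.75 ± 0.44 (adjusted p = 0.00356). After subtraction the value was 1.62 ± 0.53, which missed the threshold (adjusted p = 0.0713). KO-labelled HSC had 33.8, 48.3 and 22.43 CPM and WT HSC had 22.44, 11.1 and 15.1 CPM, so the lowest KO-labelled library lay level with the highest WT one. The value of 1.10 ± 0.43 in HSC passed narrowly (adjusted p = 0.0335) and was lost under 9 of 15 alternatives, among them background subtraction (0.66, adjusted p = 0.452) and leaving out KO-labelled replicate 1 (1.121, adjusted p = 0.0593), KO-labelled replicate 2 (0.79, adjusted p = 0.188), WT replicate 2 (0.89, adjusted p = 0.142) or WT replicate 3 (1.053, adjusted p = 0.0861). Differences of 0.16 ± 0.43 in MPP2-labelled and 0.67 ± 0.44 in MPP4-labelled cells were not called (adjusted p = 0.886 and 0.313).

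**Figure D2:**
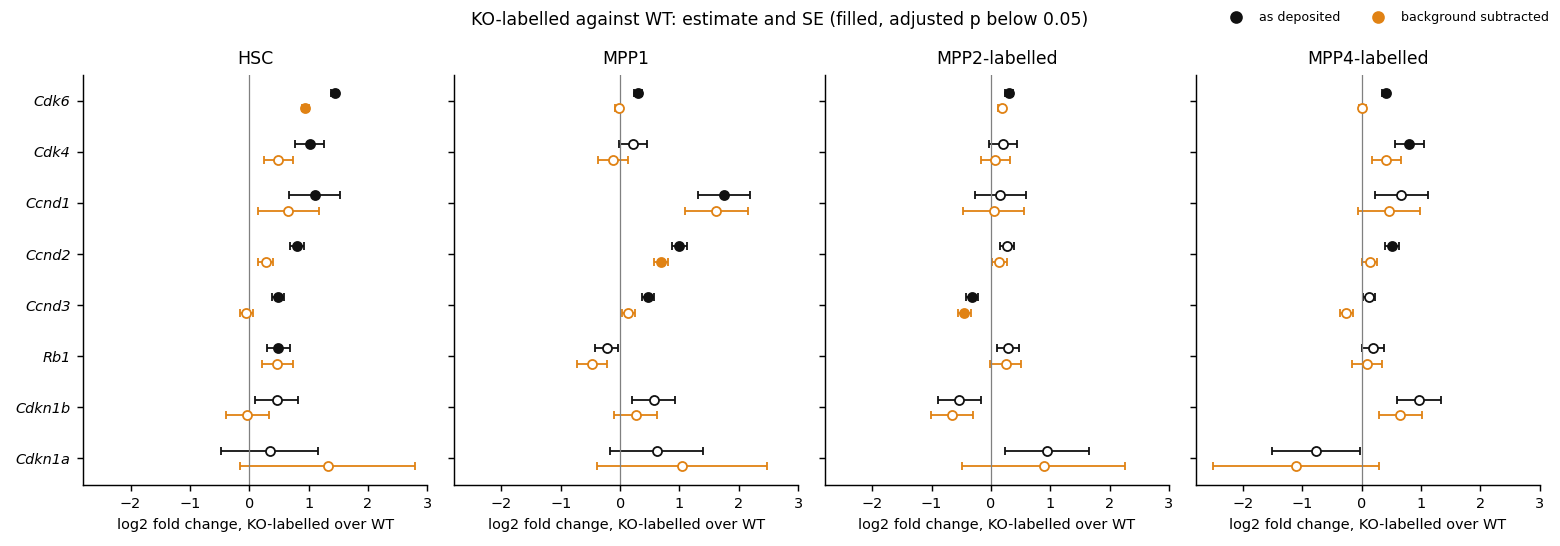
Log2 fold change of KO-labelled over WT cells (x axis) for 8 members (y axis) in each population, with bars for the SE, black for the counts as deposited, orange after background subtraction, and filled points for an adjusted p below 0.05. Cdkn1c and Cdkn2c are not shown. After subtraction Cdk6 at 0.94 in HSC, Ccnd2 at 0.69 in MPP1 and Ccnd3 at -0.45 in MPP2-labelled cells are the filled orange points.

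A proportion within a library does not depend on the scaling of that library. Among the counts of the 3 D-type cyclins, Ccnd2 took 27.2% ± 1.76 in KO-labelled HSC and 23.3% ± 4.3 in WT HSC, and these ranges overlapped. In MPP1 the share was 20.9% ± 1.82 in KO-labelled and 15.8% ± 1.86 in WT libraries (SD, n = 3 each). In MPP2-labelled cells it was 34.2% ± 1.35 and 25.8% ± 2.21 in KO-labelled and WT libraries, and in MPP4-labelled cells 30.9% ± 2.52 and 25.5% ± 2.95. In these last 3 populations every KO-labelled library had a higher Ccnd2 share than every WT library, also after background subtraction. The Ccnd3 share mirrored it, at 63.5% ± 0.842 against 72.3% ± 1.39 in MPP2-labelled cells and 76.2% ± 1.34 against 82.9% ± 1.6 in MPP1. The shares were computed after the fold changes had been seen and were not tested. Comparing levels per kb of exon, Ccnd3 was at 77.8 CPM, Ccnd2 at 22.4 CPM and Ccnd1 at 3.45 CPM in WT HSC, while per kb of gene span Ccnd2 was at 7.79 CPM and Ccnd3 at 7.21 CPM, so the order of Ccnd2 and Ccnd3 depends on the length used.

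**Figure D3:**
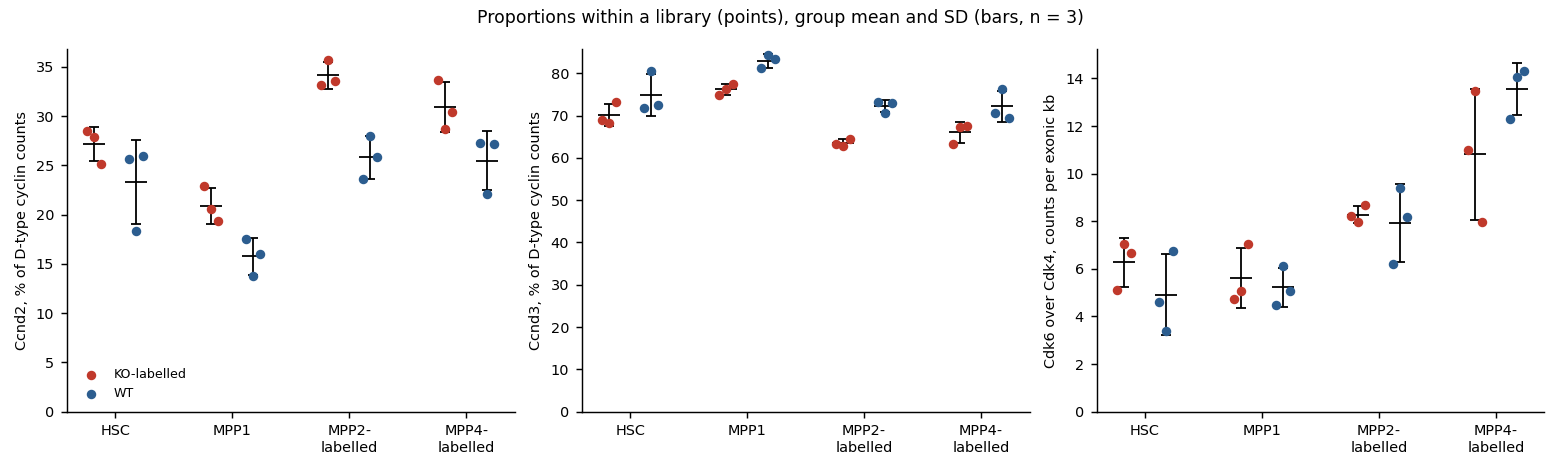
Share of the D-type cyclin counts taken by Ccnd2 (left) and Ccnd3 (middle), and the ratio of Cdk6 to Cdk4 counts per kb of exon (right), in each library, with KO-labelled libraries in red left of WT libraries in blue and black bars for the mean and SD of 3 libraries. The Ccnd2 share is higher in every KO-labelled than in every WT library of MPP1, MPP2-labelled and MPP4-labelled cells.

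Rb1, the pocket protein that the kinases phosphorylate, was at 91.0, 61.8 and 103 CPM in KO-labelled HSC and 69.8, 52.5 and 60.3 CPM in WT HSC, and the groups overlapped. The value of 0.49 ± 0.20 (adjusted p = 0.0394) was lost under 10 of 15 alternatives, including background subtraction (0.47, adjusted p = 0.254) and the removal of KO-labelled replicate 1 (0.44, adjusted p = 0.106), KO-labelled replicate 3 (0.33, adjusted p = 0.231), WT replicate 2 (0.39, adjusted p = 0.152) or WT replicate 3 (0.48, adjusted p = 0.0805). Rb1 spans 142 kb, and background was estimated at 8.21% of its counts in KO-labelled HSC and 36.7% in WT HSC. The differences in the other populations, from -0.23 in MPP1 to 0.29 in MPP2-labelled cells, were not called.

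None of the 4 inhibitors was called between KO-labelled and WT cells in any population by edgeR, as deposited or after subtraction, or by DESeq2. Before adjustment, edgeR's test gave a p below 0.05 for 1 of these 16 differences, that of Cdkn1b in MPP4-labelled cells. Cdkn1b, with at least 30 counts in every library, was at 20.9, 25.7 and 15.5 CPM in KO-labelled HSC and 13.6, 11.9 and 19.4 CPM in WT HSC, with an uncalled difference of 0.47 ± 0.36 (adjusted p = 0.302). In MPP4-labelled cells it was at 23.1, 23.7 and 24.4 CPM when KO-labelled and 10.2, 15.9 and 10.3 CPM when WT. The groups did not overlap, and the difference of 0.97 ± 0.37 missed the threshold (adjusted p = 0.0579) but passed without WT replicate 2 (1.22, adjusted p = 0.0489). In MPP2-labelled cells the order was the opposite, with 14.7, 19.0 and 16.1 CPM when KO-labelled and 24.7, 24.2 and 23.6 CPM when WT, no overlap and an uncalled difference of -0.54 ± 0.36 (adjusted p = 0.43). The interaction was not called for Cdkn1b (adjusted p = 0.134).

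Cdkn1a, the p53-responsive inhibitor, had its highest levels in MPP2-labelled cells. It was at 14.7, 22.6 and 22.9 CPM in KO-labelled MPP2-labelled cells and 10.6, 7.2 and 13.4 CPM in WT ones, the 2 highest of the 8 groups, and the uncalled difference between them was 0.95 ± 0.71 (adjusted p = 0.484). In the other 6 groups no library exceeded 6.84 CPM. In WT HSC it had 9, 2 and 8 counts, and background was estimated at 87.6% of them. Cdkn1c, the p57 gene, had 12, 16 and 20 counts in KO-labelled HSC and 9, 25 and 21 counts in WT HSC, or 5.30 ± 1.07 and 5.04 ± 2.23 CPM, with heavily overlapping groups and a difference of 0.07 ± 1.04 (adjusted p = 0.962). It was lower in every other group, with means between 0.0996 and 2.77 CPM. KO-labelled MPP2-labelled libraries held 1 count in all against 9 in WT, a ratio of 0.131 (exact 95% interval 0.00298 to 0.942, counting error only), and KO-labelled MPP4-labelled libraries held 8 counts against 1 in WT, a ratio of 7.82 (1.05 to 347). Neither was called (adjusted p = 0.307 and 0.22). Cdkn2c, which encodes p18 and inhibits CDK4 and CDK6, had at most 25 counts in any library, and all of its 12 counts in WT HSC lay in 1 library. Its differences ranged from -0.97 in MPP1 to 1.33 in MPP4-labelled cells with SEs above 1, so changes of several fold were not detectable at this depth.

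Counted over the 10 members as deposited, 6 rose and none fell in KO-labelled HSC, beside 18.4% of all genes tested that rose and 24.7% that fell. In MPP1 4 rose and none fell, beside 8.9% and 4.94% of all genes. In MPP2-labelled cells Cdk6 rose and Ccnd3 fell, beside 3.83% and 4.2%, and in MPP4-labelled cells 3 rose and none fell, beside 11.6% and 6.53%. Rises were more frequent among genes of at least 64 CPM, with 65.3% for HSC, 35.9% for MPP1 and 43.2% for MPP4-labelled cells. Over the average of the populations 66.9% of such genes rose. Ranked against genes of their own level, the HSC rises stood at percentile 44 (Ccnd3), 45 (Rb1), 75.6 (Ccnd2) and 98.4 (Cdk6). Cdk4 and Ccnd1 stood at 91.2 and 92.9 there. The MPP1 rises stood at percentile 52.8 (Cdk6), 68.5 (Ccnd3), 94.7 (Ccnd2) and 99.3 (Ccnd1). The MPP4-labelled rises stood at percentile 55.5 (Cdk6), 65.7 (Ccnd2) and 86.8 (Cdk4). That level was 8 to 64 CPM for Ccnd1 and Cdk4. Over the average of the populations 5 rose and none fell, against 23.1% and 30.2% of all genes. Among these Cdk6 rose by 0.61 ± 0.03 and Cdk4 by 0.56 ± 0.12 (adjusted p = 1.1e-21 and 1.41e-04), and after subtraction they were 0.28 ± 0.03 and 0.22 ± 0.12 (adjusted p = 6.47e-08 and 0.213). The interaction was called for 3 members, against 18.1%. For the remaining 7 members the interaction had an adjusted p of 0.134 to 0.721.

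The KO-labelled libraries lay wholly above the WT ones for 4 members in HSC, beside 23.1% of all genes above and 30.8% below. The same held for 4 members in MPP1, beside 17.3% above and 17.8% below, and for 5 in MPP4-labelled cells, beside 16.3% above and 15.4% below. In MPP2-labelled cells 3 members lay above and 2 below, beside 11.4% and 13.8%. After background subtraction 1 member, Cdk6, rose in HSC, against 4.41% of 18603 genes that rose and 4.25% that fell. In MPP1 1 member, Ccnd2, rose, against 3.01% and 2.91%, and in MPP2-labelled cells 1 member, Ccnd3, fell, against 1.76% that rose and 2.84% that fell. None was called in MPP4-labelled cells, where 3.93% of all genes rose and 3.01% fell, 6.94% together. Over the average 2 rose and 1 fell, against 9.19% and 14.4%, and the interaction was called for 1, against 5.91%. The median log2 fold change of the members as deposited was 0.48 in HSC, 0.52 in MPP1, 0.24 in MPP2 and 0.59 in MPP4 by label, beside -0.31, -0.10, -0.07 and -0.08 over all genes tested. These medians moved with the level of a gene. Ccnd2, Ccnd3, Cdk6 and Rb1 averaged at least 64 CPM, and all genes at that level had a median difference in HSC of 0.53 as deposited and 0.12 after subtraction. Ccnd1, Cdk4 and Cdkn1b averaged between 8 and 64 CPM, where the medians over all genes were 0.10 and -0.14. Cdkn1a, Cdkn1c and Cdkn2c averaged below 8 CPM, where they were -1.76 and -1.55.

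The remaining genes of G1/S control were read from a list of 32, of which 30 were tested. In KO-labelled HSC 21 of these rose and 1 fell, with a median difference of 0.85, beside 18.4% of all genes tested that rose, 24.7% that fell and 65.3% of the genes of at least 64 CPM that rose. After subtraction 11 of 28 rose and none fell, beside 4.41% and 4.25% of all genes. The gene that fell, named after its value was seen, was Cdkn2d, which encodes the INK4 protein p19. It had no count in any KO-labelled HSC library and averaged 2.81 ± 1.75 CPM in WT HSC (adjusted p = 0.00758, and 0.0693 after subtraction). Cks1b, a cofactor in the destruction of p27, rose by 2.29 ± 0.30 (adjusted p = 1.86e-08), to 54.4 ± 10.8 CPM in KO-labelled HSC against 11.1 ± 5.66 CPM in WT HSC. E2f3, an activating E2F factor, rose by 1.16 ± 0.11 (adjusted p = 2.83e-12) and E2f8, an atypical repressor among the E2Fs, by 1.56 ± 0.18 (adjusted p = 1.64e-09). Tfdp1 and Tfdp2, the DP partners of E2F, rose by 1.10 ± 0.16 and 0.97 ± 0.13 (adjusted p = 2.28e-07 and 6.87e-08). These 5 genes also rose after subtraction, by 1.82 for Cks1b, 0.68 for E2f3, 1.08 for E2f8, 0.64 for Tfdp1 and 0.62 for Tfdp2.

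In MPP1 4 genes of that list rose and 1 fell, beside 8.9% and 4.94% of all genes. Among genes of at least 64 CPM 35.9% rose and 9.95% fell. On the list, E2f3 rose by 0.64 ± 0.11, Tfdp2 by 0.54 ± 0.13, Ambra1, an adaptor for the degradation of D-type cyclins, by 0.35 ± 0.10, and Fbxo31 by 1.10 ± 0.33, while E2f8 fell by 0.77 ± 0.19. In MPP2-labelled cells E2f6, Tfdp2 and Ccne1 rose, by 0.95 ± 0.25, 0.47 ± 0.13 and 1.84 ± 0.58, beside 3.83% of all genes and 13.4% of those of at least 64 CPM. In MPP4-labelled cells 10 rose, beside 11.6% of all genes and 43.2% of those of at least 64 CPM. The listed genes that rose were led by Cks1b at 1.25 ± 0.28, Rbl1, an Rb1 relative, at 0.62 ± 0.15, Tfdp2 at 0.52 ± 0.13, E2f8 at 0.63 ± 0.17 and E2f6 at 0.86 ± 0.24. After subtraction edgeR called no rise on the list in these 3 populations, while E2f8 (adjusted p = 2.95e-04) and E2f4 (adjusted p = 0.0366) fell in MPP1. E2f4 was named after its value was seen. The interaction was called for 11 of 30 genes as deposited, beside 18.1% of all genes, and for 6 of 28 after subtraction, beside 5.91%.

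Among WT cells, Cdk6 was higher in each progenitor population than in WT HSC. It rose by 0.37 ± 0.06 in WT MPP1 (adjusted p = 2.88e-05), by 1.70 ± 0.06 in WT MPP2-labelled cells (adjusted p = 8.13e-27) and by 1.63 ± 0.06 in WT MPP4-labelled cells (adjusted p = 9.02e-26). After subtraction these were 0.44 ± 0.06, 1.40 ± 0.06 and 1.89 ± 0.06, all called. The mean levels ran from 661 ± 42.3 CPM in WT HSC through 856 ± 8.27 CPM in WT MPP1 to 2044 ± 79.8 CPM in WT MPP4-labelled and 2142 ± 52.5 CPM in WT MPP2-labelled cells, of which the last pair overlapped. KO-labelled HSC, at 1786 ± 94.8 CPM, lay between KO-labelled MPP1 at 1055 ± 35.4 CPM and the MPP2-labelled and MPP4-labelled cells of both genotypes.

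The D-type cyclins called in these comparisons were all lower than in WT HSC. Ccnd2 was lower in WT MPP1 than in WT HSC by a log2 difference of -0.85 ± 0.12 (adjusted p = 2.23e-06) and in WT MPP4-labelled cells by -0.84 ± 0.12 (adjusted p = 7.94e-07), and both calls held in all 15 alternatives. Ccnd3 was lower in WT MPP4-labelled cells by -1.03 ± 0.10 (adjusted p = 4.47e-11), again in all alternatives. In WT MPP2-labelled cells the Ccnd3 difference of -0.13 ± 0.10 was not called as deposited (adjusted p = 0.419) but was -0.46 ± 0.11 after subtraction (adjusted p = 0.0062). Cdk4 rose in WT MPP2-labelled cells by 0.95 ± 0.24 (adjusted p = 0.00285), and after subtraction the value was 0.63 ± 0.25 (adjusted p = 0.119). Rb1 rose in WT MPP1 by 0.69 ± 0.19 as deposited (adjusted p = 0.0268) and by 1.01 ± 0.26 after subtraction (adjusted p = 0.0205), but the call as deposited was lost without WT HSC replicate 2 (0.59, adjusted p = 0.183), WT HSC replicate 3 (0.69, adjusted p = 0.0855), WT MPP1 replicate 1 (0.62, adjusted p = 0.15) or WT MPP1 replicate 3 (0.67, adjusted p = 0.102).

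Of the inhibitors, Cdkn1a was higher in WT MPP2-labelled cells than in WT HSC, at 10.4 ± 3.1 against 1.77 ± 1.08 CPM, and rose by 2.53 ± 0.78 on the log2 scale (adjusted p = 0.0157). The call was lost after background subtraction (3.90 ± 1.57, adjusted p = 0.134), without WT HSC replicate 2 (2.11, adjusted p = 0.102) and without WT MPP2-labelled replicate 3 (2.32, adjusted p = 0.0646). In WT MPP4-labelled cells Cdkn1a was at 6.21 ± 0.555 CPM, with every library above every WT HSC library. The difference of 1.80 ± 0.78 was not called by edgeR (adjusted p = 0.162, and 0.2 after subtraction) but was called by DESeq2 (1.94, adjusted p = 0.0427). Cdkn1c fell in WT MPP4-labelled cells relative to WT HSC (adjusted p = 0.00845, and 0.0347 after subtraction), with 1 count against 55 over 3 libraries each, a ratio of 0.0199 (exact 95% interval 4.96e-04 to 0.116, counting error only). This call was lost without WT MPP4-labelled replicate 2 (adjusted p = 0.0568). Background was estimated at a mean of 1.77 counts per WT MPP4-labelled library, more than the 1 count these libraries held in all. Cdkn1c passed the filter on low counts mainly through HSC libraries, where it is high, so its comparisons with HSC are not independent of that filter. With no filter on low counts edgeR still called the fall (adjusted p = 0.0189). In WT MPP1 and WT MPP2-labelled cells every library had a lower Cdkn1c level than every WT HSC library, but neither difference was called (adjusted p = 0.493 and 0.141). Of the 10 members 2 rose and 1 fell in WT MPP1, beside 1.99% and 1.91% of all genes. In WT MPP2-labelled cells 3 rose and none fell, beside 11.9% and 7.46%, and in WT MPP4-labelled cells 1 rose and 3 fell, beside 3.01% and 7.54%. Libraries lay wholly above those of WT HSC for 2 members and below for 2 in WT MPP1 (10.1% and 10.2% of all genes), for 5 and 1 in WT MPP2-labelled cells (19.8% and 19.6%) and for 2 and 3 in WT MPP4-labelled cells (11.7% and 14%). After subtraction the members that rose and fell were 2 and 1 in WT MPP1 (2.84% and 1.69% of all genes), 1 and 1 in WT MPP2-labelled cells (6.14% and 4.05%) and 1 and 3 in WT MPP4-labelled cells (4.85% and 6.57%). These 3 comparisons share the WT HSC libraries.

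**Figure D4:**
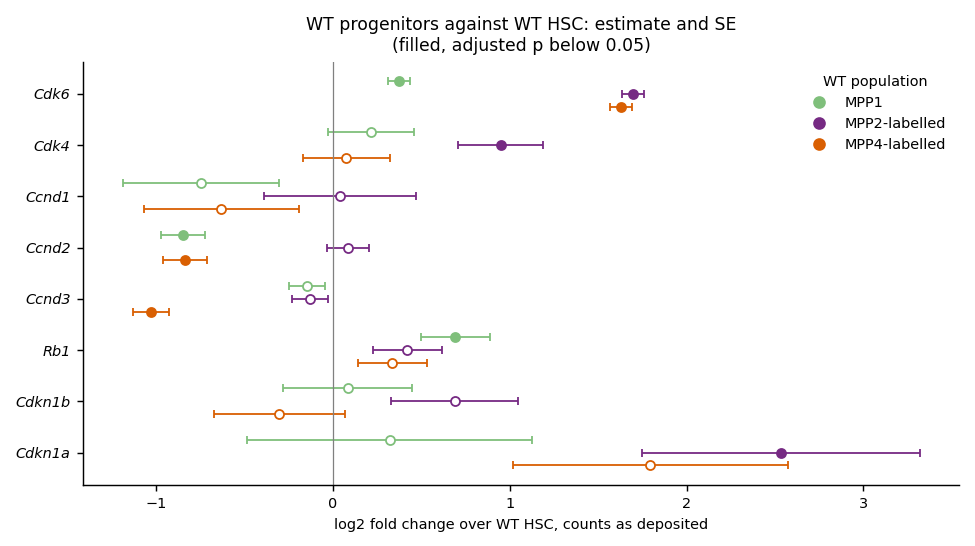
Log2 fold change over WT HSC (x axis, counts as deposited) of 8 members (y axis) in WT MPP1 (green), WT MPP2-labelled (purple) and WT MPP4-labelled cells (orange), with bars for the SE and filled points for an adjusted p below 0.05. Cdk6 is to the right in all 3 populations, at 0.37, 1.70 and 1.63, and Ccnd3 is to the left in WT MPP4-labelled cells at -1.03.

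Markers of other cell types moved with genotype in the same libraries. In HSC the summed level of 6 megakaryocyte genes was 467 to 533 CPM in KO-labelled and 194 to 231 CPM in WT libraries, most of it Vwf, which HSCs also express, and 8 erythroid genes summed to 73.9 to 86.4 CPM and 157 to 173 CPM. The mast cell and basophil sum in HSC was 6.97 to 12.3 CPM and 15 to 30 CPM, with 3.94 and 12.5 CPM expected from background. The lymphocyte sum in HSC was 12.9 to 26.9 CPM and 26.8 to 36.9 CPM, with 4.85 and 15.4 CPM expected from background. In MPP1 the erythroid sum was 62.6 to 94.3 CPM in KO-labelled and 643 to 673 CPM in WT libraries, and 8 granulocyte and monocyte genes summed to 29.5 to 37.9 CPM and 153 to 200 CPM, most of the WT sum being Mpo. Sums of 5 mast cell and basophil genes in MPP1 were 186 to 212 CPM in KO-labelled and 43.2 to 56.6 CPM in WT libraries, those of 8 lymphocyte genes 54.8 to 82.1 CPM and 31.1 to 37.8 CPM, and those of the megakaryocyte genes 41.2 to 50.1 CPM and 78.4 to 80.6 CPM. In MPP2-labelled cells 5 mast cell and basophil genes summed to 456 to 509 CPM in KO-labelled and 49.1 to 63 CPM in WT libraries. Their erythroid sum was 205 to 241 CPM and 340 to 367 CPM, and the granulocyte and monocyte sum 2160 to 2170 CPM and 1780 to 1960 CPM. Their megakaryocyte sum was 18.6 to 57.3 CPM and 37.4 to 41.8 CPM. In MPP4-labelled cells the mast cell and basophil sum was 277 to 345 CPM in KO-labelled and 130 to 172 CPM in WT libraries, with erythroid sums of 292 to 366 CPM and 736 to 820 CPM. The granulocyte and monocyte sum of the MPP4-labelled cells was 346 to 404 CPM in KO-labelled and 136 to 171 CPM in WT libraries, and the megakaryocyte sum 77.3 to 141 CPM and 185 to 198 CPM. Their lymphocyte sum was 34 to 43.9 CPM and 69.5 to 77.7 CPM. Sums of 8 stromal and endothelial genes, led by Pecam1, were 148 to 237 CPM in KO-labelled and 240 to 294 CPM in WT HSC. The mean background expected in these HSC sums was 19.3 and 61.2 CPM. The stromal and endothelial sums were 283 to 432 and 279 to 325 CPM in MPP1, 748 to 878 and 684 to 731 CPM in MPP2-labelled cells, and 300 to 372 and 227 to 273 CPM in MPP4-labelled cells. The B-cell marker Ms4a1 was at 0 in all 8 groups, but the 8 lymphocyte genes together were not. In MPP2-labelled cells they summed to 114 to 146 CPM in KO-labelled and 110 to 130 CPM in WT libraries, with Il7r the highest. The granulocyte markers S100a8 and S100a9 were at 0 in KO-labelled HSC. There the 8 granulocyte and monocyte genes summed to 15.8 to 26.1 CPM, against 29.9 to 42.6 CPM in WT HSC. Background was expected to give 3.15 and 10 CPM of these sums. The part of these cells in the results for the 10 genes was not tested.

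Some of the 10 genes share sequence with a neighbour, and no strand setting for the counting was given in the sources used here. In the GENCODE annotation of GRCm38, protein-coding genes on the opposite strand overlap exons of Ccnd1 (LTO1), Ccnd3 (Bysl), Cdk4 (Tspan31) and Rb1 (Lpar6 and Rcbtb2), and antisense or unclassified genes do so at Ccnd2, Cdk6, Cdkn1a and Cdkn1c. Reads of such pairs may have been counted for either gene.

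By Pearson correlation over the 8 group means of log2 CPM, the genes most like the 3 members of widest range were Fam118b, Usp47 and Man2a1 for Cdkn1a (r = 0.954, 0.95 and 0.943), Abcc10, Zfp512 and Rhof for Cdkn1c (r = 0.982, 0.977 and 0.974), and Ccdc18, Uap1 and Odf2l for Cdkn2c (r = 0.865, 0.847 and 0.838). They were picked from 8069 genes of at least 20 CPM, and the points share libraries and background, so the values describe the pattern only.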

How the data were processed

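RNA from sorted cells was extracted with the miRNeasy Micro Kit and made into NEBNext Ultra II RNA libraries, per the labels' protocols. The authors deposited 1 table of raw counts per gene, and the submitters' processing notes name build mm39, SAMtools 1.12 and DESeq2 without a role. The aligner, counter, annotation and strand setting are not given in the sources used here. Columns were tied to samples through the labels' descriptions. Counts were filtered with filterByExpr, scaled by TMM and fitted for all 24 libraries together, with 1 mean per group, in edgeR 4.0.16 (R 4.3.3, robust quasi-likelihood). P-values were adjusted by Benjamini-Hochberg over all 21964 genes, and an adjusted p below 0.05 counts as called. The common biological coefficient of variation was 0.393. The SE is the log2 fold change divided by the square root of F.

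Background was the count per kb of gene span over 2003 receptor genes, with spans from GENCODE on GRCm38, matched for 91.8% of IDs. In genes with long introns the receptor counts followed span rather than exon length. CPM were computed on scaled totals. The fit was tested on simulated data with 20834 genes. For KO-labelled against WT HSC, 34 of 100 genes changed by 3-fold and 3 of 100 changed by 1.5-fold were recovered. Changes of these sizes can therefore go uncalled. The simulation gave 39 calls in that comparison, against 9446 in the data, so its rates do not give the power for a given member. For example, edgeR called Ccnd3 in HSC at 1.39-fold (adjusted p = 1.5e-04). Alternatives were median-of-ratios scaling, no scaling factors, 2 other filters, DESeq2 1.42.0, the compared libraries alone, the replicate block, background per kb of span or exon, and each library left out.

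Every member is named. Of the other G1/S genes, up to 5 called genes of smallest p per comparison are named, and the similar genes are the 3 of highest correlation. The members, the gene lists and the tests were chosen with earlier results of these data known.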

Additional observations from a re-analysis of the deposited data

Results flagged for a closer look

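The KO-labelled against WT difference was unequal between the 4 populations for Cdk6, Ccnd3 and Ccnd2 by the interaction test of edgeR's quasi-likelihood fit. For Cdk6 (adjusted p = 1.16e-15) the log2 fold changes were 1.44 in HSC, 0.30 in MPP1, and 0.30 and 0.40 in MPP2- and MPP4-labelled cells, and all 3 KO-labelled libraries lay above all 3 WT libraries in each population. For Ccnd3 (adjusted p = 4.01e-05) they were 0.48, 0.47, -0.32 and 0.12, with the KO-labelled libraries of MPP2-labelled cells all below the WT ones. For Ccnd2 (adjusted p = 0.00542) they were 0.80, 1.00, 0.27 and 0.51. After background subtraction the adjusted p was 6.7e-09 for Cdk6, 0.0912 for Ccnd3 and 0.126 for Ccnd2. The estimated background differed between KO-labelled and WT cells by unequal amounts in the 4 populations, and its part in the Ccnd2 and Ccnd3 interactions beyond this subtraction was not tested.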

How the results depend on the processing

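Of 32 called results for the 10 genes, 11 held in every alternative, among them Cdk6 in KO-labelled against WT HSC, Ccnd2 in KO-labelled against WT MPP1 and Cdk6 in the 3 comparisons of WT populations, and 21 lost the call in some. Of 55 uncalled results, 5 were called in some. These totals leave out 3 Cdkn1c results in which no library of a group held over 3 counts. Of these, the fall in WT MPP4-labelled cells lost its call without WT MPP4-labelled replicate 2 (adjusted p = 0.0568), got no adjusted p from DESeq2 and was not tested with only the compared libraries. The others were called in no alternative. With background per kb of gene span subtracted, the members called in KO-labelled against WT cells were 1 in HSC, 1 in MPP1, 1 in MPP2-labelled cells, 0 in MPP4-labelled cells, 3 over the average and 1 in the interaction. With no scaling factors, an alternative chosen after seeing the data, 3 were called in HSC. With only the compared libraries 1 was called in MPP4-labelled cells. Leaving out 1 library gave 4 to 6 members called in HSC, 4 in MPP1, 1 in MPP2-labelled cells, 2 to 4 in MPP4-labelled cells, 5 to 6 over the average, 3 in the interaction, 2 to 3 in WT MPP1, 2 to 3 in WT MPP2-labelled and 3 to 4 in WT MPP4-labelled cells. Rb1 over the average was called without KO-labelled HSC replicate 2 (0.24, adjusted p = 0.035).

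The sign of several values turned, and the cause was not tested beyond the scaling shift given above. Under span subtraction, KO-labelled against WT values were -0.034 for Cdkn1b, -0.33 for Cdkn1c and -0.048 for Ccnd3 in HSC, -0.12 for Cdk4 and -0.023 for Cdk6 in MPP1, -0.26 for Ccnd3 in MPP4-labelled cells, and -0.05 for Cdkn2c and -0.16 for Ccnd3 over the average. In WT MPP2-labelled cells against WT HSC they were -0.25 for Ccnd1 and -0.25 for Ccnd2. Cdkn1c in HSC was -0.075 with median-of-ratios factors and in DESeq2, -0.26 with no factors and -0.087 with only the compared libraries. Ccnd3 in MPP4-labelled cells was -0.05 with median-of-ratios factors, -0.051 in DESeq2 and -0.049 with no factors. Without factors Cdkn2c over the average was -0.056, and Ccnd1 and Ccnd2 in WT MPP2-labelled cells were -0.21 and -0.16. That Ccnd1 value was -0.045 with median-of-ratios factors and in DESeq2, and -0.004 with only the compared libraries. Leaving out 1 library turned values in KO-labelled against WT HSC for Cdkn1a (-0.79 to 0.79), Cdkn1c (-0.25 to 0.32) and Cdkn2c (-1.11 to 4.60), in MPP2-labelled cells for Cdkn2c (-1.01 to 0.95) and Ccnd1 (-0.33 to 0.76), and over the average for Cdkn1c (-0.18 to 0.79) and Cdkn2c (-0.24 to 1.35). Against WT HSC it turned Cdkn1a (-0.31 to 0.71) and Cdkn1b (-0.12 to 0.31) in WT MPP1, Ccnd1 (-0.55 to 0.34) and Ccnd2 (-0.015 to 0.17) in WT MPP2-labelled cells, and Cdk4 (-0.11 to 0.30) in WT MPP4-labelled cells.

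With the replicate number as a block, the counts of members called were 6, 4, 2 and 3 in HSC, MPP1, MPP2-labelled and MPP4-labelled cells, 5 over the average and 3 in the interaction, as without it. Under the block Cdkn2c in HSC was 0.48 and Ccnd1 in WT MPP2-labelled cells was -0.001. Same-numbered libraries did not deviate together: 0 of 84 pairs of libraries had a correlation over 0.1, and the values ran between -0.017 and 0.026.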
